A study of Mus musculus with 9 samples.

Results

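The proteasome genes of mouse heart are described here across 9 RNA sequencing libraries. Members were the protein-coding genes whose mouse symbol starts with Psma, Psmb, Psmc, Psmd, Psme, Psmf or Psmg, leaving out Psmb8 and Psmb9. The rule found 48 of the 55401 genes in the deposited table, and 4 further rows with such a symbol were pseudogenes and were not taken. The series' title concerns JOSD2, a deubiquitinase, and the calcium pump SERCA2a. All samples were heart of C57BL/6 mice, an inbred strain, and the age, sex and number of animals per library are not stated in the labels. The Kmo_AngII group (3 libraries) is labelled as Kmo with Ang II, the pressor hormone angiotensin II, and the labels do not say whether Kmo is a genotype or an agent. The AngII group (3 libraries) received Ang II, and the Ctrl group (3 libraries) received PBS, a salt buffer. Letters at the start of the sample titles give a second grouping that the labels do not explain. The letters KKA mark the 3 Kmo_AngII libraries. The letters WA mark AngII replicate 3 and Ctrl replicates 2 and 3, and the letters WC mark AngII replicates 1 and 2 and Ctrl replicate 1. These letters thus cross the AngII and Ctrl labels. Which grouping gives the true treatment cannot be told from the labels, so both are reported.

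The proteasome is the large protease that degrades proteins tagged with ubiquitin. Its core particle, the 20S, is a barrel of outer alpha rings, which gate the entrance, and inner beta rings, which hold the cutting sites. The regulatory cap, the 19S, binds ubiquitin chains, removes them and unfolds the substrate with a ring of ATPases. In heart muscle this system clears damaged and misfolded contractile proteins, and cells are known to raise many subunit genes together through the transcription factor NFE2L1 when proteolysis is impaired.

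Total counts per library ranged from 56827533 to 73194268, and 19091 genes passed the filter on low counts. Mitochondrially encoded genes took 30.5%, 41.5% and 55.5% of the counts in the Kmo_AngII libraries, 32.0%, 39.5% and 30.3% in the AngII libraries and 48.3%, 52.6% and 43.4% in the Ctrl libraries. The labels do not tie each library to its own animal, so every p-value reflects only how far these 9 samples differ, and that spread may be technical. Heart muscle markers were high throughout, with Myh6, the alpha myosin heavy chain, at 8390 to 16348 CPM (library-scaled counts). The labels' protocol speaks of an adipose type. Of the 5 adipocyte markers, Fabp4, which capillary endothelium also expresses, was at 609 to 1458 CPM. Adipoq stayed at or below 2.94 CPM, Plin1 at or below 3.35, Cidec at or below 5.23 and Ucp1 at or below 0.197 CPM. Library Kmo_AngII 3 stood apart by fibroblast markers and by part of 3 other marker lists. These were the atrial muscle markers Sln, Myl7 and Myl4, the epicardial markers Upk3b, Msln and Upk1b, and Adipoq, Plin1 and Cidec. Its Fabp4, however, was the lowest of the 9 libraries, and its atrial Nppa and epicardial Wt1 were not the highest. Library Ctrl 2 stood apart by Sln, Myl7 and Myl4 but not by Nppa, and libraries Kmo_AngII 2 and AngII 1 by neutrophil markers. Library Kmo_AngII 1 stood apart from the other Kmo_AngII libraries by Acta1, skeletal alpha-actin, at 633 CPM against 39.6 and 13.0 CPM. Acta1 was at 617, 686 and 678 CPM in the WA libraries, and at 11.3, 17.4 and 11.5 CPM in the WC libraries.

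Of the 48 members, 47 passed the filter. Psmb11, the beta subunit of the thymus, had 0 counts in every library, which allows a level of up to 0.0353 to 0.0716 CPM, depending on depth and for counting error only. Psma8, the alpha subunit of the testis, passed with at most 19 counts and reached no more than 0.266 CPM, with 0 counts in 3 libraries. Psmc3ip, which matches the symbol rule but encodes a partner of meiotic recombination and no subunit, lay between 0.691 and 1.40 CPM. The other 31 members of the core and the cap had mean levels of 17.03 to 104 CPM. Per kilobase of the longest annotated transcript they lay between 7.70 CPM (Psmd11) and 57.3 CPM (Psmc3). The lid subunits had a median level of 18.9 CPM per kilobase, against 40.1 for the beta ring and 36.7 for the alpha ring without Psma8. The assembly factors, which build the particle and then leave it, lay between 1.26 CPM per kilobase (Psmg3) and 11.02 (Psmg2). On this scale Psmg2, Psmg1 (8.13) and Psmg4 (7.82) lay above Psmd11, and all of them below the other core and cap members without Psma8. These ranks depended on the length used. Per kilobase of the longest coding sequence, the 31 members lay between 14.2 (Psmd1) and 81.7 CPM (Psma4). Psmd11, at 18.10, then lay above Psmg1 (9.79) and Psmg4 (11.8), and Psmg2 (18.08) lay above Psmd1. The medians kept their order, at 27.9 for the lid, 64.8 for the beta ring and 55.8 for the alpha ring. The members together took 0.305%, 0.165% and 0.0917% of the counts in the Kmo_AngII libraries, 0.219%, 0.148% and 0.274% in the AngII libraries and 0.1199%, 0.136% and 0.205% in the Ctrl libraries.

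Levels of the alpha ring moved over a wide range between libraries of the same treatment label. Psma1, an alpha subunit used as the marker of the core, had 78.9, 29.7 and 24.3 CPM in the Kmo_AngII libraries, 30.0, 24.7 and 53.2 in the AngII libraries and 29.9, 55.8 and 69.9 in the Ctrl libraries. It was high in Kmo_AngII 1 and in all 3 WA libraries and low in the other 5, so the treatment groups overlapped. Psma4, the alpha subunit with the highest mean count, had 81.8, 55.7 and 44.5 CPM in the Kmo_AngII libraries, 50.4, 49.6 and 72.1 in AngII and 58.4, 82.0 and 81.0 in Ctrl. Its order over the libraries was like that of Psma1 with a smaller range. Psma3 spanned 30.8 to 50.1 CPM, a 1.624-fold range, against 4.25-fold for Psma5, the widest of the alpha subunits other than Psma8.

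The beta ring holds the proteolytic sites. Psmb5, which carries the chymotrypsin-like site, had 79.5, 28.3 and 15.8 CPM in the Kmo_AngII libraries, 44.4, 22.7 and 70.3 in AngII and 25.2, 41.8 and 48.0 in Ctrl. Psmb7, which carries the trypsin-like site, had 111, 33.6 and 17.4 CPM in Kmo_AngII, 44.0, 21.9 and 88.9 in AngII and 31.5, 60.6 and 75.3 in Ctrl. The 3 Kmo_AngII libraries of Psmb7 held both the highest and the lowest value of all 9, and its 6.38-fold range was the widest of the 31 core and cap members. Psmb4 and Psmb3, which carry no cutting site, had the highest and the lowest mean count of the ring, and each varied less. Psmb4 ranged from 38.8 to 90.7 CPM and Psmb3 from 19.5 to 49.2 CPM. Psmb10, which replaces Psmb7 in the immunoproteasome, had 48.1, 30.0 and 20.2 CPM in the Kmo_AngII libraries, 24.3, 19.04 and 35.5 in AngII and 20.96, 20.2 and 26.7 in Ctrl. It varied less than Psmb7, so the ratio of Psmb10 to Psmb7 was 0.432, 0.893 and 1.16 in the Kmo_AngII libraries, 0.553, 0.869 and 0.399 in AngII and 0.666, 0.334 and 0.355 in Ctrl. Within the second grouping this ratio was 0.399, 0.334 and 0.355 in the WA libraries and 0.553, 0.869 and 0.666 in the WC libraries, with no overlap, and no test was run on it. Taken singly, 33.6% of all 19091 tested genes had no overlap between WA and WC.

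**Figure D1:**
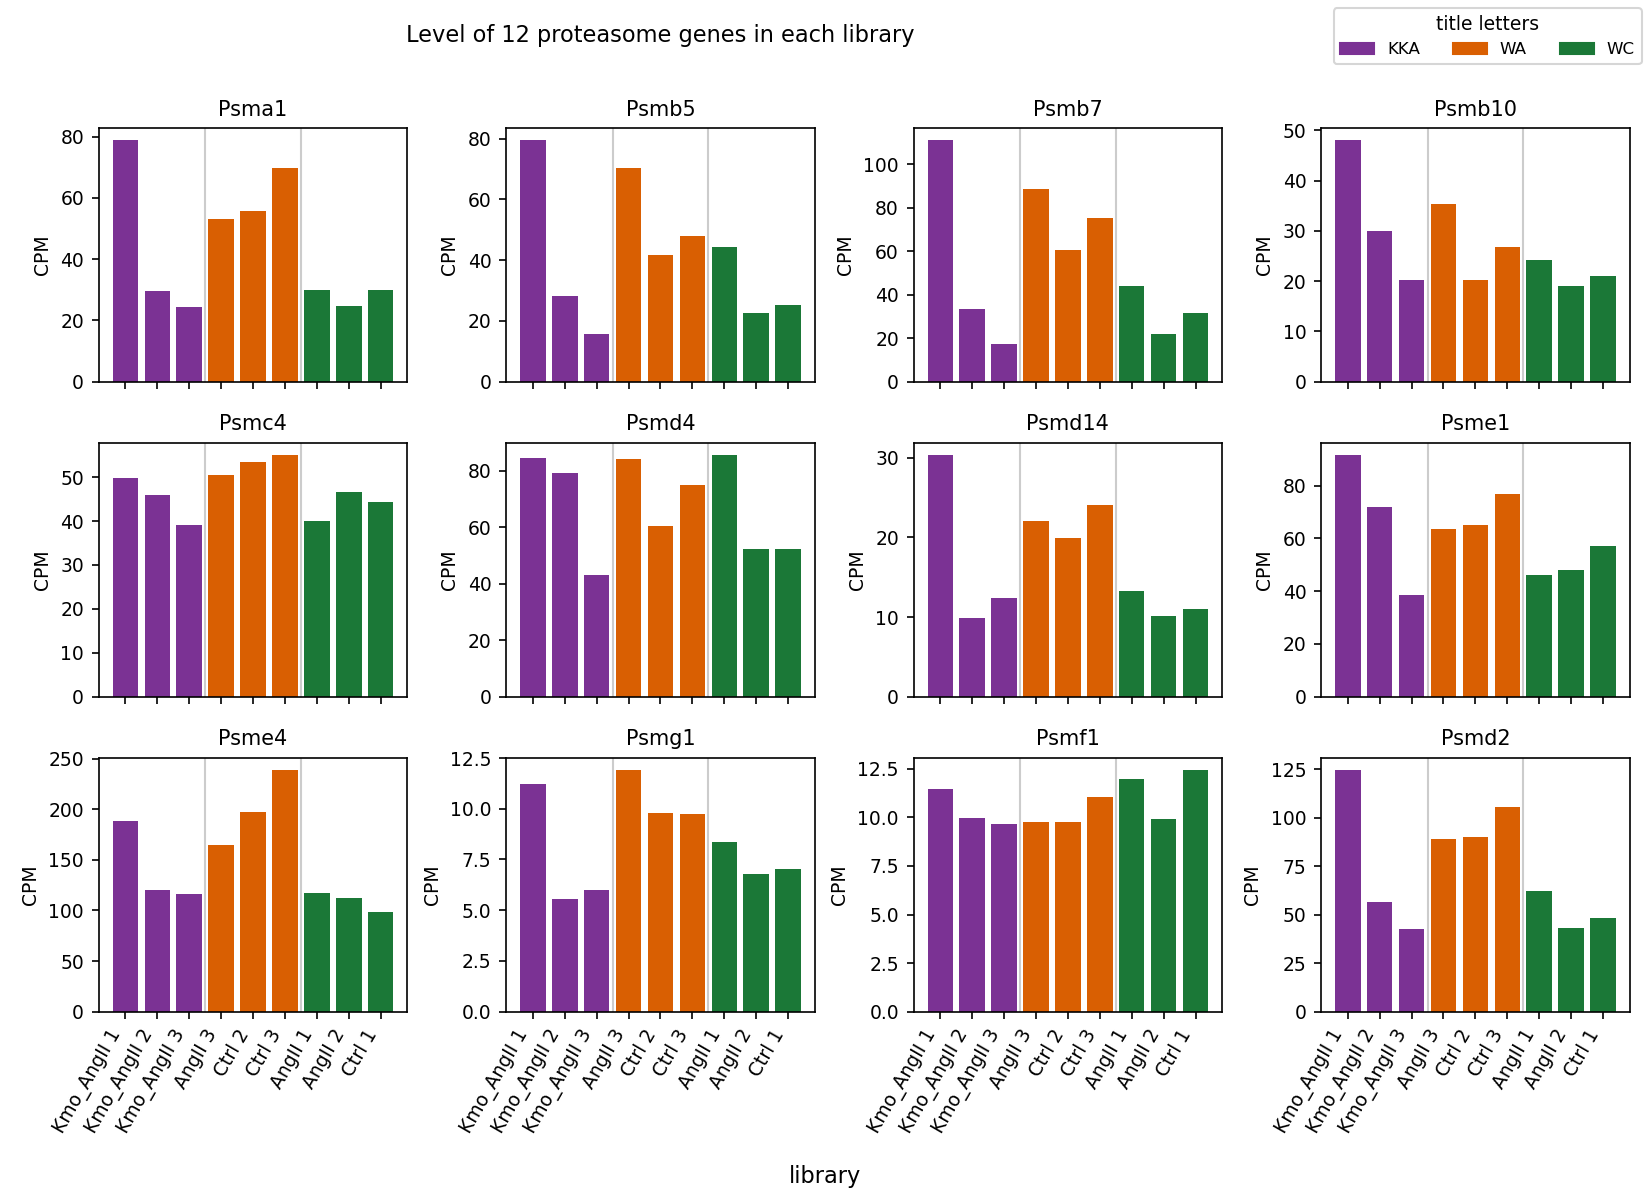
Bars give the level in CPM (counts scaled to TMM library sizes) of 12 proteasome genes in each of the 9 libraries, with title letters KKA in purple, WA in orange and WC in green. Psma1, Psmb7, Psmd2, Psmd14 and Psme4 are higher in each WA library than in any WC library, while Psmd4 and Psmf1 overlap between these libraries.

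The base of the cap carries 6 ATPases and non-ATPase subunits. Psmc3, the ATPase with the highest level per kilobase, had 163, 85.3 and 63.4 CPM in the Kmo_AngII libraries, 88.7, 68.2 and 135 in AngII and 74.3, 116 and 145 in Ctrl. Psmc2, the ATPase with the lowest mean count, ranged from 18.5 CPM in Kmo_AngII 3 to 64.1 CPM in Kmo_AngII 1. Psmc4, another ATPase, had 49.8, 45.8 and 39.0 CPM in Kmo_AngII, 40.0, 46.7 and 50.5 in AngII and 44.4, 53.4 and 55.0 in Ctrl. Its 1.41-fold range was the narrowest of the 31 core and cap members. Psmd2, a scaffold subunit that docks shuttle proteins, had 125, 56.5 and 42.7 CPM in Kmo_AngII, 62.0, 43.2 and 88.8 in AngII and 48.1, 90.0 and 106 in Ctrl. Psmd4, a ubiquitin receptor, had 84.4, 79.4 and 43.2 CPM in Kmo_AngII, 85.6, 52.4 and 84.1 in AngII and 52.4, 60.4 and 75.02 in Ctrl. Its AngII 1 library was as high as its AngII 3 library, unlike Psmd2, where AngII 1 lay among the lower libraries. Psmd1, another scaffold of the base, ranged from 25.5 to 62.4 CPM.

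The lid sits beside the base and carries the deubiquitinase of the cap, Psmd14, which cuts ubiquitin chains from the substrate. Psmd14 had 30.3, 9.91 and 12.4 CPM in the Kmo_AngII libraries, 13.3, 10.1 and 22.1 in AngII and 11.1, 19.99 and 24.1 in Ctrl. Kmo_AngII 1 and the WA libraries were again the highest 4. Psmd3, a structural lid subunit, had 67.3, 42.7 and 29.9 CPM in Kmo_AngII, 41.6, 36.5 and 57.9 in AngII and 32.8, 48.6 and 72.8 in Ctrl. Over the 31 core and cap members without Psma8, the highest level fell in Kmo_AngII 1 for 19, in Ctrl 3 for 8, in AngII 3 for 2 and in AngII 1 and Ctrl 2 for 1 each. The lowest level fell in Kmo_AngII 3 for 24 of them.

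Some assembly factors and alternative caps followed the rings less closely than most subunits did. Psmg1, which with Psmg2 guides alpha ring assembly, had 11.2, 5.54 and 6.00 CPM in the Kmo_AngII libraries, 8.36, 6.81 and 11.9 in AngII and 7.03, 9.78 and 9.73 in Ctrl. Psmg2 lay between 9.73 and 17.8 CPM and Psmg3, another core chaperone, between 1.56 and 4.27 CPM. Among the chaperones of the base, Psmd10 lay between 2.53 and 6.36 CPM and Psmd5 between 7.44 and 12.6 CPM. Psme1, a subunit of the interferon-inducible activator that opens the core without ATP, had 91.6, 71.8 and 38.5 CPM in Kmo_AngII, 46.0, 48.0 and 63.5 in AngII and 57.2, 65.0 and 76.9 in Ctrl. Psme4, a large activator known for histone degradation, had 189, 120.5 and 116 CPM in Kmo_AngII, 117, 112 and 164 in AngII and 98.5, 198 and 239 in Ctrl. Unlike most subunits, Psme4 was highest in the Ctrl libraries 2 and 3, with Kmo_AngII 1 below both. Psmf1, an inhibitor of the core in vitro, had 11.4, 9.94 and 9.67 CPM in Kmo_AngII, 11.98, 9.93 and 9.75 in AngII and 12.4, 9.75 and 11.03 in Ctrl, a 1.29-fold range. Psme2b lay between 5.78 and 15.2 CPM, and its value is uncertain because 60.2% of the 75-base stretches of its transcript are also found in Psme2.

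Averaged over members, core and cap moved in parallel through the libraries. The mean log2 level of the core without Psma8 (log2 CPM minus each gene's mean over the 9 libraries, 14 genes) was 0.77, -0.23 and -0.76 in the Kmo_AngII libraries, -0.06, -0.54 and 0.48 in AngII and -0.33, 0.21 and 0.47 in Ctrl. For the cap (17 genes) it was 0.61, -0.19 and -0.57 in Kmo_AngII, -0.12, -0.46 and 0.29 in AngII and -0.38, 0.24 and 0.57 in Ctrl. The Kmo_AngII libraries spanned the whole range of both, and the treatment groups overlapped. The ratio of summed core to summed cap CPM stayed between 0.712 and 0.904. The median of all tested genes, on the scale of the list levels, lay between -0.03 and 0.05 in each library. In bulk samples fewer cells of a type and less RNA per cell cannot be told apart, and this holds for each level here. Cardiomyocyte markers had their highest list levels in Kmo_AngII 1 and Ctrl 3, at 0.60 in each, and their lowest in Kmo_AngII 3, at -1.05.

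**Figure D2:**
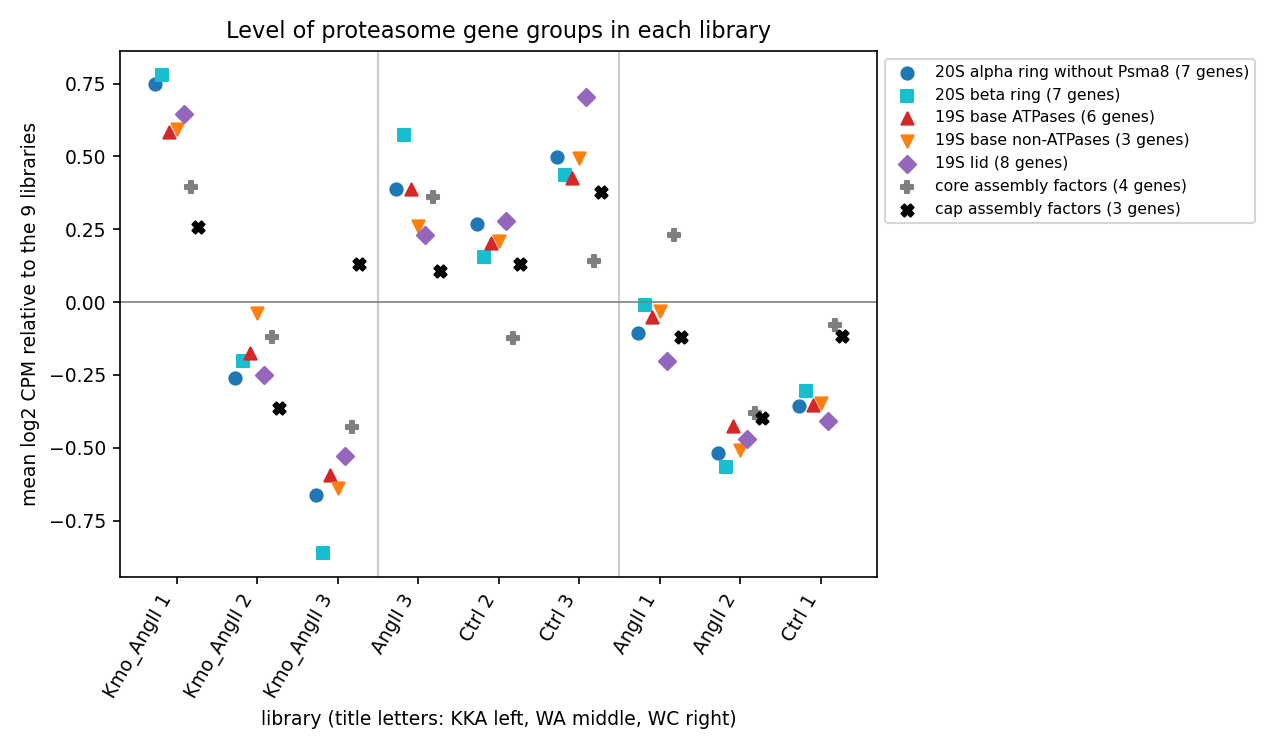
Points give the mean log2 CPM of each proteasome gene group, relative to the mean over the 9 libraries, in each library, with the title letters KKA at the left, WA in the middle and WC at the right. The alpha and beta rings and the cap groups rise and fall together, at 0.58 or above in Kmo_AngII 1 and at -0.53 or below in Kmo_AngII 3, while the cap assembly factors stay within -0.40 and 0.38.

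Members were also compared pair by pair over the 9 libraries, as a description, since all pairs share the same libraries, depth and cell mixture. Pearson's r of log2 CPM had a median of 0.88 over the 105 pairs within the core, 0.87 over the 136 pairs within the cap and 0.86 over the 255 pairs between core and cap. Over pairs of all 19091 tested genes the median was 8e-04. Psmc3 followed the mean of the other core and cap members most closely, with r = 0.99. Psmf1, Psmc3ip and Psmd5 followed it least, with r = 0.21, 0.21 and 0.29, and Psma3, Psmc4 and Psmd8 were the loosest of the structural subunits other than Psma8, with r = 0.72, 0.74 and 0.74. Psmg1 (0.87), Psme4 (0.85), Psme1 (0.84) and Psmg2 (0.83) followed the mean more closely than these loosest subunits.

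**Figure D3:**
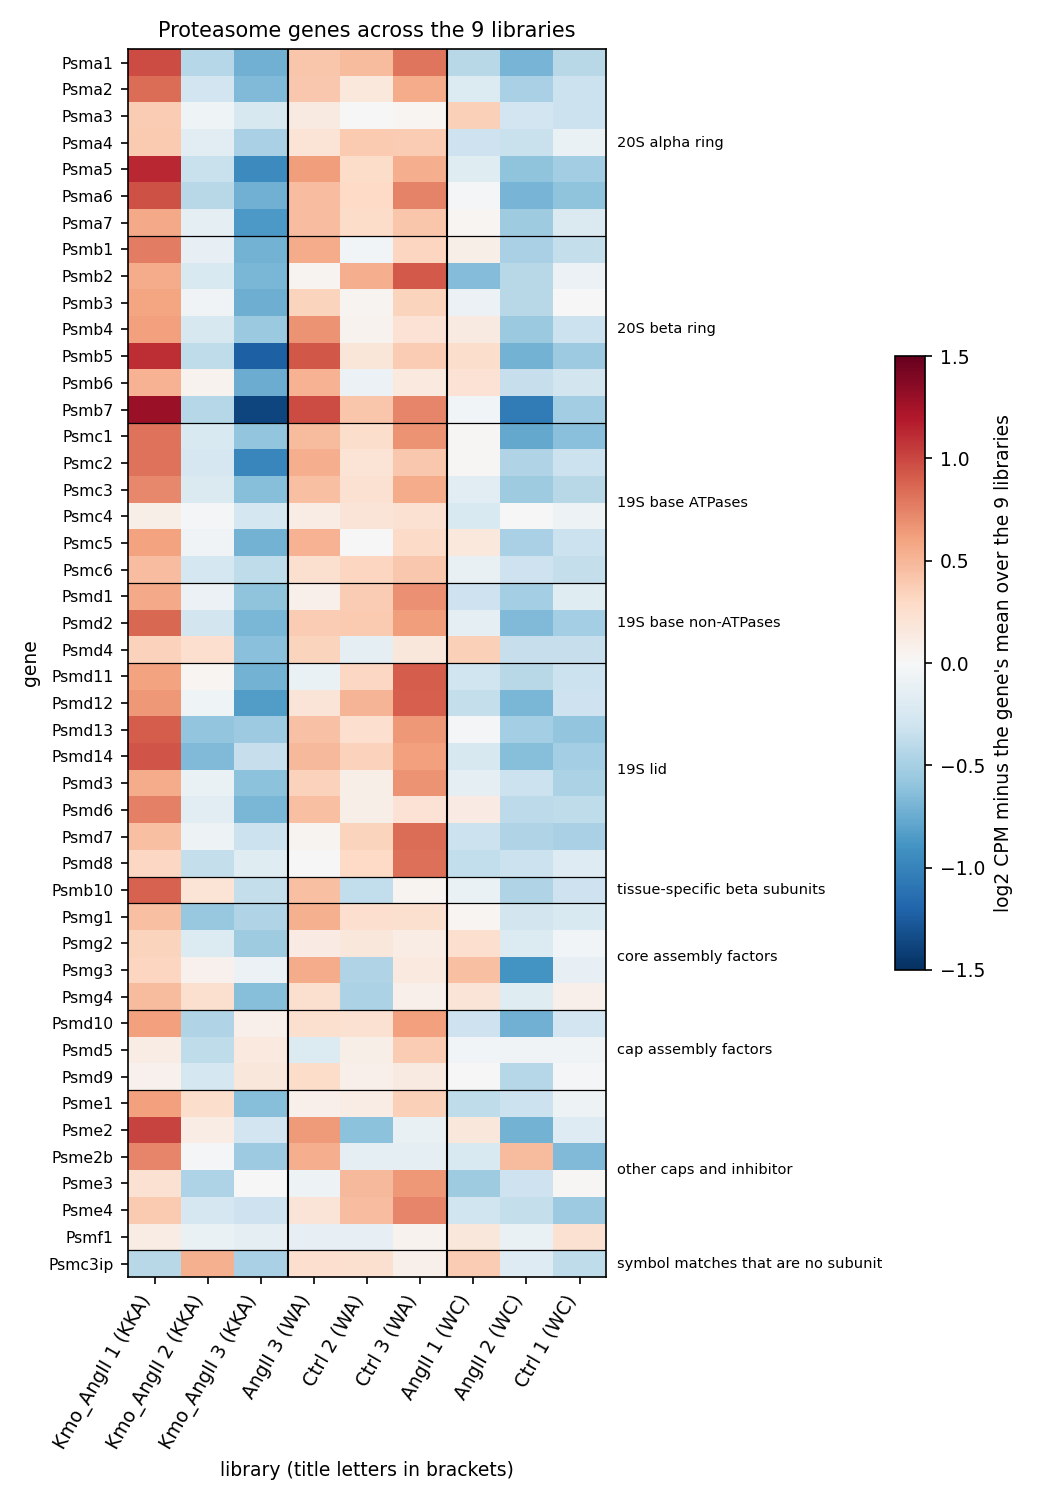
Rows are the 46 tested proteasome genes other than Psma8, grouped by role, columns are the 9 libraries in the order KKA, WA, WC, and colour gives log2 CPM minus the gene's mean over the 9 libraries. Most subunits of both rings, base and lid are red in Kmo_AngII 1 and in the WA libraries and blue in Kmo_AngII 3 and AngII 2, and Psmf1, Psmd5 and Psmc3ip do not follow this pattern.

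Kmo_AngII hearts were set against AngII hearts, which share the hormone. No member was called at an adjusted p under 0.05 (edgeR quasi-likelihood test, adjusted over all genes tested), and 0% of all genes were called. At an unadjusted p under 0.05, 0 of 47 members passed, against 2.16% of all genes. The difference (log2, Kmo_AngII minus AngII) was positive for 29 members and its median was 0.07, against 0.03 for all genes, and with scaling by library size alone these medians were -0.20 and -0.29. The members with the smallest p were Psme1 at 0.36 ± 0.31 (SE), Psme3, the nuclear activator subunit, at 0.25 ± 0.25, and Psmb10 at 0.32 ± 0.33. All 3 had overlapping libraries and an edgeR adjusted p of 1. The sign of the list's median rested on single libraries, since it was -0.32 without Kmo_AngII 1 and -0.10 without AngII 2. It was 0.27 without Kmo_AngII 3 and 0.30 without AngII 3.

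Kmo_AngII hearts were next set against Ctrl hearts, and AngII hearts against the same Ctrl hearts, so these comparisons share their controls. For Kmo_AngII minus Ctrl, 0 of 47 members and 0% of all genes were called, and 0 members passed unadjusted, against 2.79% of all genes. The median log2 difference of members was -0.09, against 0.05 for all genes, with 15 positive, and with scaling by library size alone these medians were 0.30 and 0.37. The smallest p values belonged to Psme3 (-0.46 ± 0.25), Psme2, the partner of Psme1 (0.68 ± 0.39), and Psmb10 (0.53 ± 0.33), each with an edgeR adjusted p of 0.998. Psme2 had 44.6, 23.8 and 18.1 CPM in the Kmo_AngII libraries and 19.2, 14.4 and 20.4 in the Ctrl libraries, so that 1 Kmo_AngII library lay below the 2 higher Ctrl libraries. Its value is uncertain too, since 51.7% of its 75-base stretches are also found in Psme2b. The list's median was 0.15 without Kmo_AngII 3, 0.03 without Kmo_AngII 2 and 0.13 without Ctrl 3.

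For AngII minus Ctrl, 0 of 47 members and 0% of all genes were called, and 2 members (4.26%) passed unadjusted, against 5.25% of all genes. The share among members was near that background. Psme3 had 18.8, 21.9 and 25.7 CPM in the AngII libraries and 27.6, 38.1 and 42.5 CPM in the Ctrl libraries, without overlap. It was the only 1 of the 47 members without overlap, against 12.2% of all genes. Its log2 difference was -0.70 ± 0.25 (edgeR adjusted p = 0.89). Psmb2, a beta subunit with no cutting site, had 20.5, 24.1 and 33.1 CPM in AngII and 30.2, 46.7 and 60.7 in Ctrl, with a log2 difference of -0.82 ± 0.36 (edgeR adjusted p = 0.89). Psmd8, a lid subunit, followed at -0.59 ± 0.29, with the same edgeR adjusted p of 0.89. The median log2 difference of the 47 members was -0.16, against 0.02 for all genes, with 15 positive. It was 0.04 without AngII 2, 0.02 without Ctrl 3 and 0.06, with 28 positive, once the title letters were in the model. When counts were scaled by library size alone, the median of all genes moved to 0.67 and that of members to 0.50, so members stayed below the general shift.

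Between the WA and WC libraries, each a mix of hearts labelled AngII and Ctrl, many proteasome subunits were higher in WA. In the fit of the 6 WA and WC libraries, 23 of 47 members (48.9%) were called, all higher in WA, and none lower. Of all 18111 genes of that fit 13.3% were called, and 8.06% were called higher. Every WA library lay above every WC library for 28 of the 47 members, against 17.8% of all genes. The median log2 difference of members was 0.59, against -0.01 for all genes, and 45 of 47 were positive. With scaling by library size alone, however, 0 members and 1.28% of all genes were called, and the median of members was 0.31 (37 of 47 positive) with that of all genes at -0.32. Core and cap list levels over the 9 libraries then overlapped between WA and WC. The WA library Ctrl 2 was at -0.44 for the core with Psma8 and -0.31 for the cap, against 0.40 and 0.33 in the WC library AngII 1. The number of calls also rested on single libraries. It was 1 without AngII 2, 2 without Ctrl 3, 5 without Ctrl 1 and 14 without Ctrl 2, but 24 without AngII 1 and 22 without AngII 3. The share of all genes called was 2.45% without AngII 2, 2.77% without Ctrl 3, 5.41% without Ctrl 1 and 6.67% without Ctrl 2, and it was 13% without AngII 1 and 15.9% without AngII 3.

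In the fit that also held the KKA libraries, no member was called for WA minus WC. Psmd7, Psme4 and Psmd12 had the smallest p there, at 0.87 ± 0.26, 0.88 ± 0.27 and 1.002 ± 0.34 on the log2 scale, each with an edgeR adjusted p of 0.224. There 0% of all genes were called, while 19 members (40.4%) passed unadjusted, against 18% of all genes. The common dispersion was 0.156 in this fit and 0.088 in the fit of 6 libraries. Without Kmo_AngII 1, 15 members were called in the larger fit, all higher in WA, against 7.98% of all genes in either direction. The values below are from the fit of 6 libraries, where 13.3% of all genes were called and 8.06% were called higher.

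The alpha ring had 6 of 8 tested members called in WA over WC. Psma1 led, at 53.2, 55.8 and 69.9 CPM in the WA libraries against 30.0, 24.7 and 29.9 CPM in the WC libraries, a log2 difference of 1.09 ± 0.17 (edgeR adjusted p = 0.00442). Psma5 had 25.8, 20.2 and 24.4 CPM in WA against 14.8, 10.99 and 11.6 in WC, a difference of 0.93 ± 0.18 (edgeR adjusted p = 0.00986). Because 39.8% of the 75-base stretches of its transcript occur in transcripts of 2 other genes, its counts are uncertain. Psma6 had 57.4, 51.3 and 70.3 CPM in WA against 40.9, 25.9 and 27.5 in WC, a difference of 0.94 ± 0.21 (edgeR adjusted p = 0.0159). Psma2 had 44.5, 37.7 and 49.5 CPM in WA against 29.3, 24.1 and 27.0 in WC, a difference of 0.72 ± 0.17 (edgeR adjusted p = 0.0174). In each of these the WA libraries lay above all WC libraries. Psma3 was not called, at 0.12 ± 0.20 (edgeR adjusted p = 0.749), and it too shares 21.3% of its stretches with other genes.

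The beta ring had 2 of 7 members called, Psmb7 and Psmb2. Psmb7 had 88.9, 60.6 and 75.3 CPM in the WA libraries against 44.0, 21.9 and 31.5 in the WC libraries, a log2 difference of 1.22 ± 0.25 (edgeR adjusted p = 0.011) and the largest of the 47 members. Its exons overlap those of Nek6 on the opposite strand over 11.8% of their length, and no source used here gives the strand setting of the counting. Psmb5 had 70.3, 41.8 and 48.0 CPM in WA against 44.4, 22.7 and 25.2 in WC. The WC library AngII 1 lay above the WA library Ctrl 2, and the difference of 0.81 ± 0.28 missed the threshold (edgeR adjusted p = 0.0787). Psmb5 shares 40.0% of its stretches with other genes. Psmb10 was not called either, at 0.37 ± 0.21 (edgeR adjusted p = 0.267).

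The base had 4 of 6 ATPases and 2 of 3 non-ATPase subunits called. Psmc3 had 135, 116 and 145 CPM in the WA libraries against 88.7, 68.2 and 74.3 in the WC libraries, a log2 difference of 0.79 ± 0.18 (edgeR adjusted p = 0.0182). Psmd2 had 88.8, 90.0 and 106 CPM in WA against 62.0, 43.2 and 48.1 in WC, a difference of 0.90 ± 0.19 (edgeR adjusted p = 0.0118). Both had no overlap between the groups. Psmc4 was not called, at 0.29 ± 0.15 (edgeR adjusted p = 0.232), although its WA libraries (50.5, 53.4 and 55.0 CPM) all lay above its WC libraries (40.0, 46.7 and 44.4 CPM). Psmd4 was not called, at 0.22 ± 0.23 (edgeR adjusted p = 0.565), with overlapping libraries.

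The lid had the highest share of calls, 7 of 8 members, with a median log2 difference of 0.80. Psmd14 had 22.1, 19.99 and 24.1 CPM in the WA libraries against 13.3, 10.1 and 11.1 in the WC libraries, a difference of 0.95 ± 0.17 (edgeR adjusted p = 0.00723). Psmd12, a lid scaffold subunit, had 46.1, 57.6 and 75.3 CPM in WA against 31.7, 25.1 and 32.6 in WC, a difference of 1.01 ± 0.20 (edgeR adjusted p = 0.0104). Psmd7, the inactive partner of Psmd14 in the lid, had 43.4, 53.3 and 75.5 CPM in WA against 33.8, 30.7 and 30.0 in WC, a difference of 0.88 ± 0.20 (edgeR adjusted p = 0.0179). Psmd13 had 33.2, 29.3 and 38.6 CPM in WA against 24.3, 17.2 and 16.3 in WC, a difference of 0.82 ± 0.20 (edgeR adjusted p = 0.02), and 14.0% of its stretches lie in Sirt3 on the opposite strand. In all of these the libraries of the groups did not overlap, and within WA the library Ctrl 3 was the highest. Psmd6 was the lid member not called, at 0.47 ± 0.19 (edgeR adjusted p = 0.121).

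Outside the rings, base and lid fewer members were called. Of the other caps and the inhibitor, Psme4 was called, 1 of 6 (16.7%), a share near the 13.3% of all genes. Psme4 had 164, 198 and 239 CPM in the WA libraries against 117, 112 and 98.5 in the WC libraries, a log2 difference of 0.89 ± 0.20 (edgeR adjusted p = 0.0153). Psme1 missed the threshold at 0.46 ± 0.17 (edgeR adjusted p = 0.0942), and Psmf1 had a difference of -0.16 ± 0.18 (edgeR adjusted p = 0.6). Of the chaperones of the base, Psmd10 was called, 1 of 3, at 0.81 ± 0.24 (edgeR adjusted p = 0.045). None of the 4 core assembly factors was called, and Psmg1, with the smallest p of them, had a difference of 0.51 ± 0.19 (edgeR adjusted p = 0.0923). Over the whole core 8 of 15 members were called, with a median difference of 0.63, and over the base and lid 13 of 17, with a median of 0.74. Whether core and cap differed from each other was not tested.

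**Figure D4:**
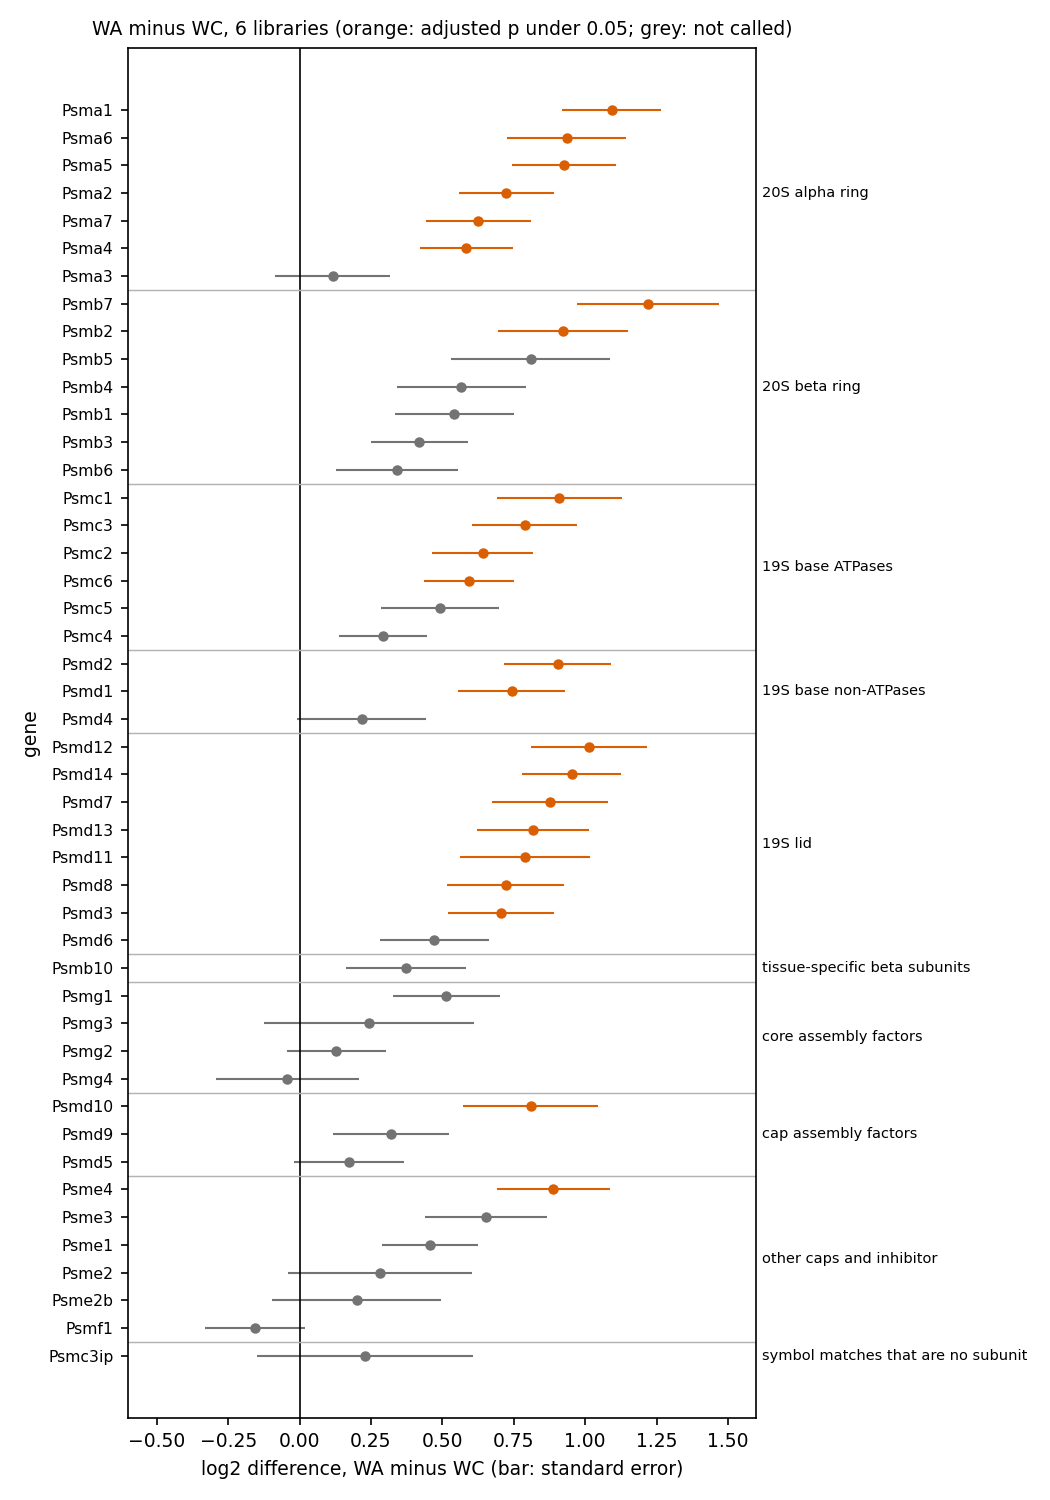
Points give the log2 difference, WA minus WC in the fit of 6 libraries, of the 46 tested proteasome genes other than Psma8, by role, with bars for the standard error, in orange where the edgeR adjusted p is under 0.05 and in grey otherwise. The called members lie between 0.58 (Psma4) and 1.22 (Psmb7), 7 of the 8 lid members are called, and Psmf1 and Psmg4 lie below 0.

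Genes that work with the proteasome but fall outside the symbol rule were read in the same fit. Of all genes of that fit 13.3% were called, and 8.06% were called higher. Of 15 tested partners, 4 (26.7%) were called, all higher in WA. Txnl1, a redox protein bound to the cap, had 47.3, 51.5 and 56.0 CPM in the WA libraries against 31.3, 23.4 and 25.3 in the WC libraries (log2 difference 0.97 ± 0.17, edgeR adjusted p = 0.00633). Usp14 (0.83 ± 0.18, edgeR adjusted p = 0.015) and Uchl5 (0.77 ± 0.18, edgeR adjusted p = 0.0176), the deubiquitinases that dock on the cap, were also called. Of 7 genes of the NFE2L1 route, 2 were called, while the median log2 difference of the 7 was 0.15 and 2 were negative. Ddi2 averaged 40.6 CPM in WA against 49.8 in WC, and Nfe2l2 52.8 against 60.4. Nfe2l1 had 158, 129 and 203 CPM in WA against 98.6, 74.0 and 85.8 in WC (0.93 ± 0.21, edgeR adjusted p = 0.0163), and Vcp, the ATPase that extracts NFE2L1 from the endoplasmic reticulum, rose by 0.99 ± 0.19 (edgeR adjusted p = 0.00798). None of the 6 ubiquitin and E1 genes was called, and Uba1, the main ubiquitin-activating enzyme, had the smallest p among them (0.50 ± 0.20, edgeR adjusted p = 0.124).

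Some cell type markers differed by title letters as well, in the same fit, where 13.3% of all genes were called. A single call in a short marker list is therefore not set apart from that share. The cardiomyocyte markers summed to 31036 to 39105 CPM in the WA libraries against 20249 to 26260 CPM in the WC libraries. Of these, 1 of 6, Actc1, was called (log2 difference 2.31 ± 0.30, edgeR adjusted p = 0.00242). Actc1, Myl2 and Tnnt2 had no overlap between WA and WC. Myh6, Tnni3 and Ryr2 overlapped, and Ryr2 averaged 426 CPM in WA and 428 in WC. The red cell markers summed to 116 to 490 CPM in WA against 2944 to 7318 CPM in WC, and 5 of 5 were called lower. The neutrophil markers summed to 4.75 to 7.71 CPM in WA against 19.9 to 148 CPM in WC, with 1 of 4 called lower (Ngp). Of the fibroblast markers 2 of 5 were called higher (Col1a2 and Col3a1), and of the macrophage, atrial and epicardial markers 1 each (Csf1r lower, Nppa higher, Wt1 lower). No endothelial, T cell or adipocyte marker was called. Of the skeletal muscle list Acta1 and Ckm, the muscle creatine kinase that heart also expresses, were called higher. The skeletal myosins Myh1, Myh2 and Myh4 lay between 0 and 0.178 CPM in every library. The part of these cell types in the proteasome differences was not tested. Mitochondrial shares overlapped between WA (30.3% to 52.6%) and WC (32.0% to 48.3%), and without mitochondrially encoded and haemoglobin genes 23 members were again called.

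**Figure D5:**
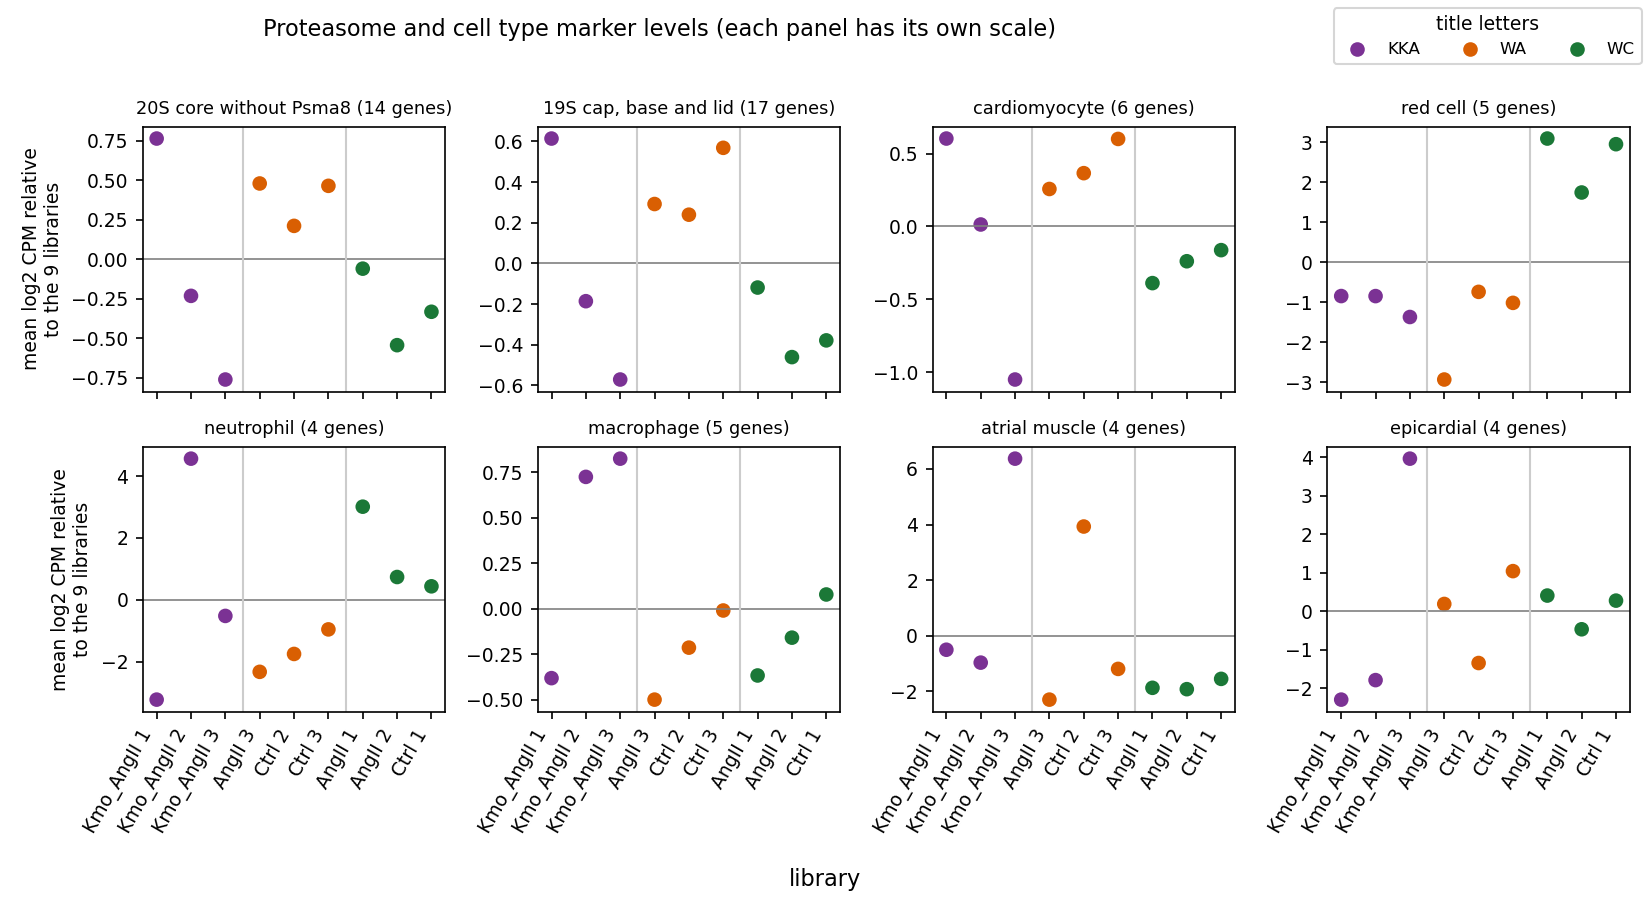
Points give the mean log2 CPM, relative to the mean over the 9 libraries, of the core, the cap and 6 marker lists in each library, coloured by title letters (KKA purple, WA orange, WC green), each panel on its own scale. In these TMM-scaled means core, cap and cardiomyocyte markers are higher in every WA library than in any WC library, and red cell and neutrophil markers are lower. With scaling by library size alone, core and cap overlap. Atrial and epicardial marker means are highest in Kmo_AngII 3.

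The KKA libraries, which are the Kmo_AngII hearts, were set against WA and WC in the fit of 9 libraries. These comparisons share the KKA libraries. For KKA minus WA, 0 of 47 members and 0% of all genes were called, and 0 passed unadjusted, against 7.05% of all genes. The log2 difference was positive for 5 of 47, with a median of -0.33, against 0.05 for all genes. Psme4 had the smallest p (-0.50 ± 0.27, edgeR adjusted p = 0.718), then Psmd8 (-0.46 ± 0.25, edgeR adjusted p = 0.72) and Psmb2 (-0.57 ± 0.33, edgeR adjusted p = 0.727). Without Kmo_AngII 1, 12 members were called, all lower in KKA, against 8.66% of all genes in either direction in that fit, and the median was -0.69 (0.07 for all genes), while without Kmo_AngII 3 the median was -0.08. For KKA minus WC, 0 of 47 members and 0% of all genes were called, and 0 passed unadjusted, against 3.51% of all genes. There the median was 0.29, with 43 positive, and it was -0.06 without Kmo_AngII 1. Psmb10 (0.61 ± 0.31), Psmd10 (0.57 ± 0.30) and Psmd7 (0.47 ± 0.26) had the smallest p, each with an edgeR adjusted p of 0.995.

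Since most core and cap members moved together, their promoters were read in RefSeq's table for GRCm38.p6, from 250 bases before to 50 after the start. A promoter was found for 40 of the 48 members. The table's build is not the mm8 that the submitters' processing notes name, so no position was carried over from the deposited table. Of 5 motifs searched on both strands, the ETS core CCGGAAG, bound by factors of the ETS family, was in 10 of 25 core and cap genes (40.0%), against 9.93% of all 27025 genes in the table. It was in 15 of the 40 members overall. The GC box GGGCGG was in 15 of the 25 core and cap genes against 38.2% of all genes, and CCAAT in 40.0% against 41.06%. The antioxidant response element core TGACNNNGC, which NFE2L1 and NFE2L2 can bind, was in 16.0% against 13.99%, and the TATA box TATAAA in 3 of 25 against 15.67% of all genes. The shares of all genes take in genes not expressed in these libraries, and no share over only the tested genes was taken. Whether these motifs are more frequent than in other expressed genes was therefore not tested. A match is a description of letters and not a bound site. The ETS core lay in 5 of the 9 promoters found for the 12 called members described above by p, and these are printed from 150 bases before to 20 after the start, 5′ to 3′, with capitals for the ETS core on either strand and, in Psme4, also for the antioxidant response element core.
Psmd12, chr11:107479378-107479547, plus strand: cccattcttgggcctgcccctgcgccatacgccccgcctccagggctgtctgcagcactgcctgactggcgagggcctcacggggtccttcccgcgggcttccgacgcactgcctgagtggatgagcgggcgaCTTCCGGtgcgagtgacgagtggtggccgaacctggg
Psmd2, chr16:20651502-20651671, plus strand: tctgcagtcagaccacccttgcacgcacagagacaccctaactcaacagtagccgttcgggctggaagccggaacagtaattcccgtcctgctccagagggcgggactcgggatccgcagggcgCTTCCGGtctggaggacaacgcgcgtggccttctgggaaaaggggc
Psme4, chr11:30771625-30771794, plus strand: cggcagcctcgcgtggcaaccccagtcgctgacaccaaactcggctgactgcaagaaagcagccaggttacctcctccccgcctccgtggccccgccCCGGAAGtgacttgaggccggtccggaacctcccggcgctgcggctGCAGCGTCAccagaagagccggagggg
Psma6, chr12:55398675-55398844, plus strand: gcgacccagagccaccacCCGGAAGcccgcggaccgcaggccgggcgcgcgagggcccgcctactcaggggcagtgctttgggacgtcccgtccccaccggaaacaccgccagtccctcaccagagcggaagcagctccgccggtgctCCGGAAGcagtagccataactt
Psmd13, chr7:140882244-140882413, plus strand: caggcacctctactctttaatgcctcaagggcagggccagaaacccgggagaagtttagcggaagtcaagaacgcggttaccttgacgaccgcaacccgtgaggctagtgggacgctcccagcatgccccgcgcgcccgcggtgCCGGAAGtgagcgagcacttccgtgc
In all 5 the ETS core closest to the start lies within 60 bases of it. Psma1, Psmd14 and Psma5, the 3 called members with the smallest p, had no ETS core in their window, and Psma6 has a second annotated start whose window held none. Psmc4 and Psma3, which were not called, had none either, while Psmd4 and Psmd6, not called, had 1 each.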

How the data were processed

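Poly(A) RNA of mouse heart was sequenced in 9 libraries with paired ends, per the labels' protocols. The authors deposited whole-number counts per Ensembl gene, 1 column per library, not scaled for depth or length, per the file headers. Bowtie 0.12.2, HISAT2 2.0, StringTie 1.3.0 and the build mm8 are named in the submitters' processing notes, without roles. How reads were counted, and with which strand setting, is not given in the sources used here, and counts derived from StringTie coverage can depart from read counts.

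Symbols came from a reference list of gene names, or from GENCODE M21 (GRCm38) where that list had none. Together these named 55141 of the 55401 genes by identifier. Gene types and lengths came from GENCODE M21. Differences were tested on all genes with edgeR 4.0.16 in R 4.3.3 (TMM, filterByExpr, robust quasi-likelihood F test, Benjamini-Hochberg adjustment, called at an adjusted p under 0.05). Differences are first group minus second, and each standard error was derived from the difference and its F statistic. List levels used log2 CPM with a prior count of 2. A stretch counted as shared where all 75 bases occurred in a transcript of another gene. The fits were tested on simulated data: for AngII minus Ctrl (19091 genes, 9 libraries) 3% of genes changed 2-fold and 73% of those changed 4-fold were recovered, and for WA minus WC (18111 genes, 6 libraries) 55% and 98%. The changed genes, 100 for each fold, were drawn only from the better expressed genes. These rates thus do not cover low members such as Psmg3 and Psmc3ip.

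The groups follow the treatment labels and, as a second grouping, the title letters. Within each group no libraries agreed within counting noise. Named members were, per comparison, up to 12 called members by p or else the 3 with the smallest p, beside 10 index members and the highest and lowest of each list by mean count. Psma3, Psmd6, Psmd11 and Psmg4 fall outside this rule and were named after their values were seen. The members, lists and rules, and the separate fit of the 6 WA and WC libraries, were chosen with earlier results of these data known. Alternatives used DESeq2 1.42.0, limma 3.58.1 (voom), other scalings and filters, the other grouping as a covariate, and each library left out. A fit without both Kmo_AngII replicate 3 and Ctrl replicate 2 was added after the marker levels were seen. A further result is not reported here.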

Additional observations from a re-analysis of the deposited data

How the results depend on the processing

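For WA minus WC in the fit of 9 libraries, 0 members were called, but the DESeq2 Wald test called 1, the fit of only the libraries compared 23, and leaving out 1 library gave 0 to 15. For KKA minus WA, leaving out 1 library gave 0 to 12. For WA minus WC in the fit of 6 libraries, 23 members were called. This became 0 with scaling by library size alone and 1 to 24 when 1 library was left out. The cause of these changes was not tested, beyond the smaller samples that leaving out a library makes. The other alternatives of that fit called 19 (treatment label as a covariate, 18 of them among the 23) to 25 (DESeq2 Wald test, all 23 among them). The direction of Psmd8 in AngII minus Ctrl (0.0649) and of Psme3 in Kmo_AngII minus AngII (-0.075) turned with scaling by library size alone, and that of Psmb10 in Kmo_AngII minus AngII turned without Kmo_AngII replicate 1 (-0.0655, and up to 0.597 with other libraries left out). The treatment comparisons and KKA minus WC called 0 members under every alternative run, the fit without both Kmo_AngII replicate 3 and Ctrl replicate 2 among them. The title letters could not be a covariate for comparisons with Kmo_AngII, since KKA marks the same libraries. No paired analysis was possible because the replicate numbers were given in sample order and the labels pair no samples. In simulated data a 2-fold change in AngII minus Ctrl was recovered for 3% of the better expressed genes that were given one. A count of 0 there thus does not show that levels were alike.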
